A study of Homo sapiens with 30 samples.

Results

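The 42 genes described here encode the bone morphogenetic proteins (BMPs), growth and differentiation factors (GDFs), activin and nodal ligands and transforming growth factor beta (TGF-beta) ligands, together with their antagonists and ID target genes. They were taken by name from a fixed list and are 42 of the 20037 protein-coding genes of the RefSeq annotation, all of which matched. By class, 31 are ligands, 7 are antagonists (NOG, CHRD, GREM1, FST, BMPER, CER1 and the pseudoreceptor gene BAMBI) and 4 are ID targets (ID1 to ID4). Ligands are the BMP, GDF, MSTN, NODAL, LEFTY, INHB and TGFB genes, grouped by name and not by whether they activate or inhibit signalling. A gene was counted as carrying a protein when a called peak lay within 2 kb of either annotated gene end.

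The data are CUT&RUN peak lists for RING1 and RNF2, the paralogous ubiquitin ligases of Polycomb repressive complex 1 (PRC1). The cells were wild-type, unedited neural progenitors grown as a monolayer in N2/B27/FGF medium and derived from the established human embryonic stem cell line H9. Each antibody has 2 libraries and 1 peak list per library, here called set A and set B; which of them is replicate 1, and whether the replicates were separate cultures, the labels leave unsaid. The series holds 30 libraries of 5 genotypes; those of IgG, H2AK119ub1 and edited RING1 or RNF2 alleles were not analysed here. The lists hold no expression values, so the neural progenitor label was not checked against markers.

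Most ligands of the family signal through paired serine/threonine kinase receptors, BMPs and their closest GDF relatives to SMAD1, SMAD5 and SMAD9, and TGF-beta, activin, nodal and several other GDF ligands to SMAD2 and SMAD3; GDF15 uses the receptor GFRAL instead. Secreted antagonists such as noggin, chordin and follistatin bind ligands outside the cell, and the ID genes, which encode inhibitors of basic helix-loop-helix factors, are direct targets of BMP signalling. In the early embryo inhibition of BMP signals favours neural fate, and BMPs from the roof plate pattern the dorsal neural tube. PRC1 places a single ubiquitin on histone H2A and is found at CpG-rich promoters of silenced developmental genes.

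The lists differ greatly in length, with 12891 RING1 and 16263 RNF2 peaks in set A and 659 RING1 and 5901 RNF2 peaks in set B. The sources used here give no read depth, so a gene without a peak is one where none was called. With 1 library behind each list and 2 per antibody, no test across replicates was run, and shares over all protein-coding genes are given for comparison.

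RNF2 was called at 29 of the 42 genes in set A (69.0%), where 56.1% of all protein-coding genes had a peak, and at 21 in set B, where 21.7% did. RING1 was called at 27 genes in set A (64.3%), against 45.6% of all genes, and at 2 genes in set B (4.76%), GDF6 and GDF7, against 1.32%. RNF2 was present in both sets at 20 genes (47.6%), against 20.8% of all genes, and RING1 in both sets at the same 2 genes, against 1.31%. GDF6 and GDF7 thus carried every call that RING1 of set B made in the family. The excess of RING1 in set A was not kept by stronger peaks: at a −log10 q of at least 5, 3 members (7.14%) had one against 7.97% of all genes, and among the 659 peaks of highest q value on that scale 1 member (2.38%) against 3.70%.

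Of the 21 genes with RNF2 in set B, 20 (95.2%) also had it in set A, which is 69.0% of the 29 genes of set A; GDF10 was the exception. Over all genes the share was alike, with 4161 of 4343 genes of set B (95.8%) also in set A. All 20 genes with RNF2 in both sets had RING1 in set A. RING1 and RNF2 peaks overlapped by at least 1 bp at 26 genes in set A, against 42.3% of all genes, and at GDF6 and GDF7 in set B, against 1.26%. The authors' consolidated region file placed a region at 20 members, against 21.0% of all genes, and they were the same 20 genes that had RNF2 in both sets. That match is not independent, since 100% of the consolidated regions met an RNF2 peak of set A and 99.6% one of set B. Of the same regions, 90.5% met a RING1 peak of set A. RING1 of set A at all 20 genes was thus near a general share.

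By class, set A had RNF2 at 20 of 31 ligands, 5 of 7 antagonists and all 4 ID targets. Set B had it at 16 ligands, 4 antagonists and 1 ID target. Over all genes these lists stood at 56.1% and 21.7%, so the ID targets of set B (25.0%) were near that share. RING1 in set A was at 18 ligands, 5 antagonists and 4 ID targets, and in set B at 2 ligands and at no antagonist or ID target. Of all protein-coding genes, 45.6% had a RING1 peak by the longer list, that of set A, but only 1.32% by the shorter one. Where so few genes are called, a lack of RING1 from 7 antagonists and 4 ID targets does not set these classes apart. The ID targets thus had both proteins at every member in set A and RNF2 at ID2 alone in set B. Among the ligands, RNF2 in both sets was at 7 of 10 BMP genes, 4 of 10 GDF genes, 2 of 3 TGFB genes and 2 of 8 activin, nodal, lefty and myostatin genes (25.0%), where all genes stood at 20.8%. The plot of shares by class shows these counts beside all genes.

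**Figure D1:**
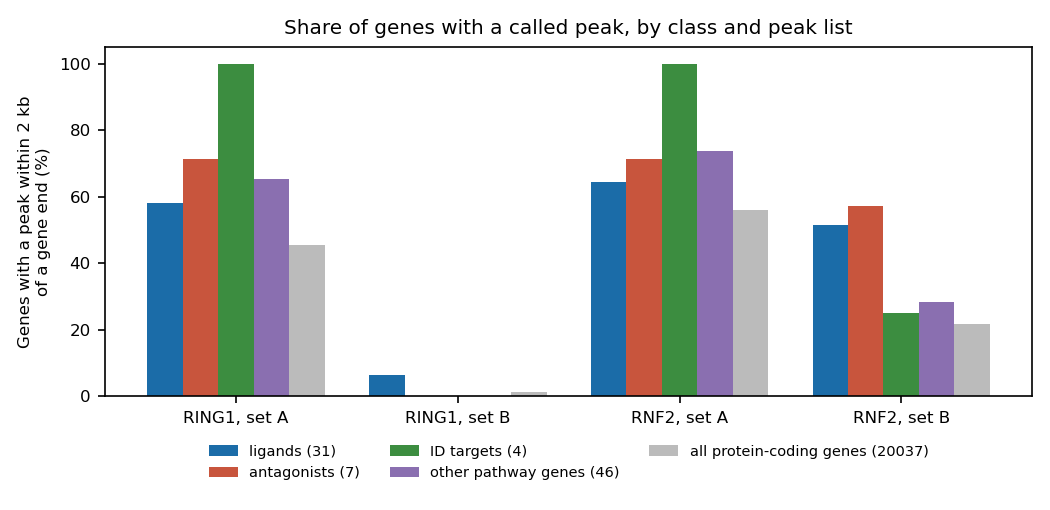
Share of genes (y axis, percent) with a called peak within 2 kb of a gene end in each of the 4 peak lists, for ligands, antagonists, ID targets, 46 other pathway genes and all 20037 protein-coding genes. In RNF2 of set B ligands (51.6%) and antagonists (57.1%) stand above all genes (21.7%), and ID targets (25.0%) are 1 gene of 4.

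The 5 promoter windows printed next show the sequence at the starts the peaks met or left out: the ligand, antagonist and ID target with the strongest RNF2 in both sets for which a promoter could be printed, and the members without any peak that had the lowest and the highest CpG content. Each runs 5′ to 3′ on the gene's strand from 250 bases before to 50 after the RefSeq start site (build GRCh38.p14), and capitals mark every CpG. GDF7 lies at chr2:20666894-20667193 (plus strand), BMPER at chr7:33904665-33904964 (plus), ID2 at chr2:8681806-8682105 (plus), GDF3 at chr12:7695726-7696025 (minus) and GREM1 at chr15:32717754-32718053 (plus).
GDF7: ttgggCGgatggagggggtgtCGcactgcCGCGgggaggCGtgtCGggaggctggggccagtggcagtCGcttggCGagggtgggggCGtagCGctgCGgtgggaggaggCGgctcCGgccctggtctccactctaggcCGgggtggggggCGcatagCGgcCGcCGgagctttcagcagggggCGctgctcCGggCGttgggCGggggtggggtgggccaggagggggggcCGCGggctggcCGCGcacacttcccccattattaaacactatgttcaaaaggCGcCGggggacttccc
BMPER: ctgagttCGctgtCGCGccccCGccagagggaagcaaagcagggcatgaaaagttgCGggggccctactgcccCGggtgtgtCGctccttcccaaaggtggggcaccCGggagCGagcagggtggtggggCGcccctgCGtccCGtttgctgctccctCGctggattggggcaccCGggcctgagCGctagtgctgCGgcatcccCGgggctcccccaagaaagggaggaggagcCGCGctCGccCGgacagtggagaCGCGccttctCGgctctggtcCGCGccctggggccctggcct
ID2: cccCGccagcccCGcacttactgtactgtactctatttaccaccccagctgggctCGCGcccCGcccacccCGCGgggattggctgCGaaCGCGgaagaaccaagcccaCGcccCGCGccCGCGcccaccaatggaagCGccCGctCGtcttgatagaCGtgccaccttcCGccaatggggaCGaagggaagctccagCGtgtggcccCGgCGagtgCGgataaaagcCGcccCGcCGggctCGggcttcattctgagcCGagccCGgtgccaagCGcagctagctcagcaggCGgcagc
GDF3: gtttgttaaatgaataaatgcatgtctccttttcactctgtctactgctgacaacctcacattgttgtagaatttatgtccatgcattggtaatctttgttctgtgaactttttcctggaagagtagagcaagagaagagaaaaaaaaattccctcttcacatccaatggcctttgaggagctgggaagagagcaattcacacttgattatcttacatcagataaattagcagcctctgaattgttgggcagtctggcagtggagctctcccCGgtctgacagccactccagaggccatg
GREM1: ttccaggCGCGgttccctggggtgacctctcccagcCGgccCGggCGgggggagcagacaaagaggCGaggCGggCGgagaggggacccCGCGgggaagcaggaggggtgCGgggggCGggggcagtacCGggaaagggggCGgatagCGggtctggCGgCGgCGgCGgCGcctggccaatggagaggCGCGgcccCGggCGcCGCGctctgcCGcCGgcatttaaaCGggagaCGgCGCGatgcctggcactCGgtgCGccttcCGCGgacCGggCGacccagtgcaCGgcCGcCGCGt
GDF7, BMPER and ID2, which had RNF2 in both sets, hold 28, 26 and 33 CpGs in 300 bases. ID2 was the only ID target with RNF2 in both sets, and its RNF2 peak of set B did not meet the printed window. GDF3, with no peak in any list, holds 1. GREM1, which encodes the secreted BMP antagonist gremlin, also had no peak in any list and holds 42.

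Among the ligands, GDF6 and GDF7 were the members called in all 4 lists, which 1.28% of all genes were. GDF6, a ligand of skeletal and eye development (chromosome 8, 96142333 to 96160806, hg38), had RNF2 folds over background of 10.6 (set A) and 6.37 (set B), and RING1 folds of 6.50 and 4.40. These folds are the authors' peak caller's own values and are ranked only within a list: the RNF2 folds were above those of 98.1% and 95.6% of all genes with a peak in the same list. For RING1 of set B, GDF6 stood above 31.1% of such genes. Its peaks were 9414 bp and 7718 bp wide for RNF2 and 9160 bp and 1122 bp for RING1. The RNF2 peaks covered 56.9% and 41.5% of the gene.

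GDF7, a roof plate ligand that acts on dorsal spinal interneurons (chromosome 2, 20667144 to 20679243), had RNF2 folds of 7.14 and 5.16 and RING1 folds of 4.87 and 4.36. The RING1 fold of set B ranked above 29.2% of genes with a peak in that list. The GDF7 RNF2 peaks of 9890 bp and 7059 bp both spanned the start, and that of set A was the widest RNF2 peak of the family. The RING1 peak of set A was of like width, 9966 bp, whereas that of set B was 517 bp and ended upstream of the start. Both proteins in both sets thus lay at these GDF genes, with a wide RING1 domain in set A and a short piece of it in set B.

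BMP4, a ligand of dorsal neural and mesodermal patterning (chromosome 14, 53949736 to 53956891), carried 2 RNF2 peaks in each set. The stronger had folds of 9.28 and 4.77 and widths of 7536 bp and 3041 bp. It ranked above 97.0% of genes with a peak in set A and 84.0% in set B. The other peak lay at the far end, with folds of 4.78 and 3.26 and widths of 6304 bp and 535 bp. RING1 in set A had the same 2 places, with folds of 5.88 and 3.89. RNF2 peaks of set A covered 83.0% of BMP4, the highest share of any ligand. A predicted neighbouring gene, LOC124903317, also has an end in the BMP4 peaks.

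BMP6 and BMP2 had single peaks at 1 gene end. BMP6, which acts in iron balance and bone (chromosome 6, 7726099 to 7881728), had RNF2 folds of 6.52 and 3.86 over 4941 bp and 2924 bp, and RING1 in set A at 4.29 over 3616 bp; all 3 peaks spanned its start. BMP2, a ligand of bone and heart development (chromosome 20, 6767686 to 6780246), had RNF2 folds of 5.25 and 3.65 over 2721 bp and 925 bp, and RING1 at 5.13 over 1420 bp. BMP3, a ligand that opposes other BMPs in bone (chromosome 4, 81030708 to 81057627), had RNF2 folds of 5.14 and 3.43 over 1221 bp and 1492 bp and RING1 at 3.87 over 1269 bp. In these genes the peaks of both sets lay at the same end of the gene.

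BMP7, a ligand of kidney and eye development (chromosome 20, 57168753 to 57266641), had RNF2 folds of 4.40 and 4.16, with a peak of 4892 bp in set A and one of 365 bp in set B, and RING1 at 3.85 over 2636 bp. BMP8A (39491636 to 39529869) and BMP8B (39757182 to 39788865), near-identical paralogs on chromosome 1 that act in the germline, had RNF2 folds in set A of 4.80 over 1340 bp and 3.94 over 2483 bp. In set B these were 4.19 over 385 bp and 4.0 over 756 bp. Their RING1 peaks in set A were 357 bp and 700 bp wide, with folds of 3.84 and 3.78. Reads from near-identical copies can be placed at either copy, so the values of this pair are uncertain. At BMP7, BMP8A and BMP8B the RNF2 peaks of set B were at most 756 bp wide.

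GDF5, a ligand of joint formation (chromosome 20, 35433347 to 35454749), combined a high fold with a narrow peak. Its RNF2 folds were 8.56 and 4.33 over 1224 bp and 579 bp. They ranked above 96.2% and 73.6% of genes with a peak in the same list. The RING1 fold of GDF5 in set A, 7.66, was the highest of the family and above 96.6% of genes with a peak. The peak also met an end of CEP250, a centrosome protein gene. GDF9, an oocyte ligand (chromosome 5, 132861185 to 132866651), had RNF2 folds of 4.60 and 4.40 over 1252 bp and 707 bp and RING1 at 4.25 over 649 bp. Its peak was shared with UQCRQ, a gene of the mitochondrial respiratory chain that lies next to it. At both genes the peaks cannot be assigned to 1 of the neighbours.

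INHBB, which encodes the activin B subunit (chromosome 2, 120346136 to 120351803), had RNF2 folds of 5.22 and 4.55. The peak of set A spanned the start over 5762 bp, and that of set B, 1861 bp wide, lay upstream of it. RING1 of set A had 1 peak on each side of the start, with folds of 4.72 over 2304 bp and 4.37 over 2164 bp. An end of LOC105373989, a predicted gene, lay in the same peaks. INHBE, a hepatic activin subunit gene (chromosome 12, 57455307 to 57458025), had RNF2 folds of 5.96 and 4.53 over 3898 bp and 3456 bp and RING1 at 5.45 over 3632 bp, but no base of its gene body was covered. Those peaks (57459154 to 57463051 for RNF2 in set A) began beyond the gene and met an end of GLI1, a transcription factor gene of hedgehog signalling, and with a window of 1 kb INHBE lost its peaks.

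TGFB1 (chromosome 19, 41330323 to 41353922), a broadly expressed cytokine gene, had RNF2 folds of 4.25 and 3.77 over 2978 bp and 1415 bp and RING1 at 4.52 over 2010 bp; B9D2, a ciliary protein gene, shared the peak. TGFB2 (chromosome 1, 218345336 to 218444619) had RNF2 folds of 4.10 and 3.55 over 2866 bp and 835 bp. RING1 of set A had 2 narrow peaks at TGFB2, with folds of 3.91 over 376 bp and 3.16 over 707 bp. TGFB3 had RNF2 in set A only, at 4.53 over 554 bp. The RNF2 folds of TGFB1 and TGFB2 in set A were below the median of 4.33 over all genes with a peak in that list.

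The other ligands with a peak, GDF1, INHBA, GDF10, GDF11, GDF15 and TGFB3, lacked RNF2 in at least 1 set. GDF1 had both proteins in set A and its peak was shared with CERS1, a ceramide synthase gene whose transcript can also encode GDF1. INHBA, the activin A subunit gene (chromosome 7, 41685114 to 41705406), had both in set A over 383 bp for RING1 and 562 bp for RNF2. GDF11 and GDF15 had RNF2 in set A only, at folds of 3.66 and 3.67, and the peak at GDF15, a stress-response cytokine gene, lay at its far end. GDF10 had RING1 in set A (262 bp) and RNF2 in set B (335 bp), which did not overlap. None of these genes had an RNF2 peak wider than 2038 bp, and GDF6 had the highest and GDF11 the lowest RNF2 fold of all ligands in set A.

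**Figure D2:**
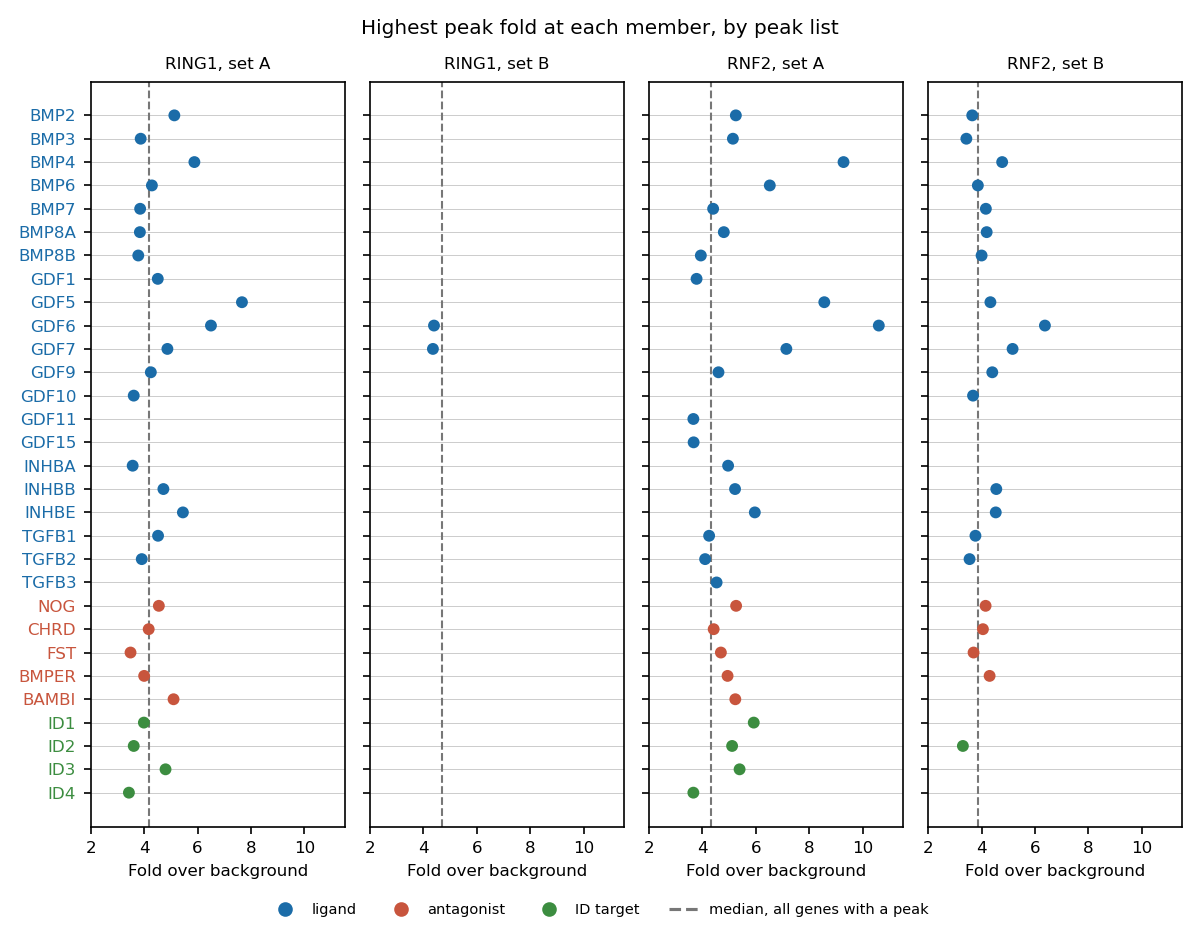
Highest fold over background (x axis, authors' value) at each of the 30 members with a peak, in 1 panel per list; points are coloured by class and the dashed line is the median over all genes with a peak in that list. GDF6, BMP4, GDF5 and GDF7 lie farthest right in RNF2 of set A (10.6, 9.28, 8.56 and 7.14), and RING1 of set B holds 2 points.

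Among the antagonists, RNF2 was called in both lists, and RING1 in set A, at NOG, CHRD, FST and BMPER. NOG, which encodes noggin (chromosome 17, 56593699 to 56595611), had RNF2 folds of 5.26 and 4.15 over 5202 bp and 2250 bp, and its short gene was covered to 100% in set A and 68.0% in set B. RING1 of set A formed 2 peaks there, with folds of 4.55 over 2169 bp and 4.45 over 2390 bp. BMPER, a BMP-binding endothelial regulator (chromosome 7, 33904915 to 34156427), had RNF2 folds of 4.94 and 4.30 and peaks of 6519 bp and 3983 bp that spanned the start. FST, which encodes the activin-binding protein follistatin (chromosome 5, 53480629 to 53487134), had RNF2 folds of 4.69 and 3.70 over 3868 bp and 3805 bp and RING1 at 3.49 over 2262 bp. At BMPER, RING1 of set A had a fold of 4.0 over 2443 bp.

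CHRD, which encodes chordin (chromosome 3, 184380054 to 184390739), had RNF2 folds of 4.42 and 4.05 over 1725 bp and 2005 bp. RING1 of set A had 2 peaks of 703 bp and 559 bp, with folds of 4.17 and 3.93, and THPO, the thrombopoietin gene, has an end in the same place. BAMBI, a pseudoreceptor gene that is itself induced by BMP signals (chromosome 10, 28677521 to 28682932), had RNF2 at 5.23 over 5326 bp and RING1 at 5.10 over 2872 bp in set A and neither in set B, where the nearest RNF2 peak was 8911 bp from a gene end. The peak of set A covered 80.8% of BAMBI. Across the antagonists with a peak, the median RNF2 width in set A was 5202 bp (5 genes), against 2602 bp for ligands (20 genes), 2437 bp for ID targets (4 genes) and 1156 bp for all genes with a peak. In RNF2 of set A, BAMBI (5326 bp) lay between NOG and BMPER in width.

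The 4 ID targets carried both proteins in set A. ID1 (chromosome 20, 31605289 to 31606510) had an RNF2 fold of 5.92 over 2456 bp, which covered 95.8% of the gene, and RING1 at 3.99 over 1649 bp. ID3 (chromosome 1, 23557926 to 23559501) had 2 peaks of each protein, 1 over the start (RNF2 4.97, RING1 4.60) and 1 beyond the far end (RNF2 5.39, RING1 4.80). ID4 (chromosome 6, 19837370 to 19842197) had RNF2 at 3.66 and RING1 at 3.43, each the lowest fold of its class in that list. None of ID1, ID3 and ID4 had a peak in set B.

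ID2 (chromosome 2, 8682056 to 8684461) was the ID gene with RNF2 in both sets, and the peak of set B was far narrower. In set A a peak of 7052 bp with a fold of 5.11 spanned the start, and a second of 1271 bp with a fold of 4.01 lay at the far end. In set B a peak of 580 bp with a fold of 3.30 lay inside the wide peak of set A, 1871 bp upstream of the start, the position closest to the 2 kb limit among members counted in that list, and it was lost with a window of 1 kb. RING1 of set A had a fold of 3.61 over 1046 bp at the start and did not overlap the set B peak. With a 1 kb window, no ID target had RNF2 in set B.

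No list held a peak at 12 members: the ligand genes BMP5, BMP10, BMP15, GDF2, GDF3, MSTN, NODAL, LEFTY1, LEFTY2 and INHBC and the antagonist genes GREM1 and CER1. Of all genes, 59.4% had a peak in at least 1 list. INHBC, at 2262 bp from a RING1 peak of set A, and LEFTY1, at 3034 bp from an RNF2 peak of set A, were the closest to the limit and were counted with a window of 5 kb. NODAL, the ligand of mesendoderm and left-right patterning, had peaks of set A inside its gene body, which covered 4.0% of it for RNF2, and was counted when gene bodies were used. GREM1 was 449174 bp and BMP5 490344 bp from the nearest peak of any list.

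Peaks at the family were wider at the median than those of all genes with a peak in 3 of the 4 lists. In RNF2 of set A the median width at the strongest peak was 2721 bp over 29 members and 1156 bp over 11236 genes, and in set B 1492 bp over 21 members and 897 bp over 4343 genes. In RING1 of set A it was 1649 bp over 27 members and 802 bp over 9144 genes. In RING1 of set B it was lower, 820 bp over GDF6 and GDF7 against 1761 bp over 264 genes, and so was the median fold, 4.38 against 4.69. In the other lists the median folds were 4.96 against 4.33, 4.15 against 3.85 and 4.25 against 4.19, in the order given. In set A the RNF2 peak was wider than the RING1 peak at 23 of 26 members (88.5%) and at 80.9% of 8620 genes with both; BMP3, GDF7 and ID3 were the exceptions.

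Most peaks of set A spanned the start of the gene. For the 34 members with an entry in the promoter table, the strand was known. Of those with a peak, RNF2 of set A covered the annotated start at 20 of 23 (87.0%) and RING1 of set A at 17 of 21 (81.0%), against 77.8% and 67.0% of all such genes. RNF2 of set B covered it at 6 of 15, against 57.1% of all such genes, with the peaks of INHBB, GDF5, GDF10 and ID2 upstream and those of BMP4, GDF9, TGFB1, TGFB2 and CHRD inside the gene. At BMP4 the promoter table places the start 1841 bp inside the annotated end, and the RNF2 peak of set B met that window. The plot of peak extents shows most set B peaks inside a set A peak of the same protein; CHRD and FST extend past it on 1 side, and GDF10 has none in set A. At 8 of the 29 members with RNF2 in set A the peak also met an end of another protein-coding gene, against 37.5% of all genes with a peak.

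**Figure D3:**
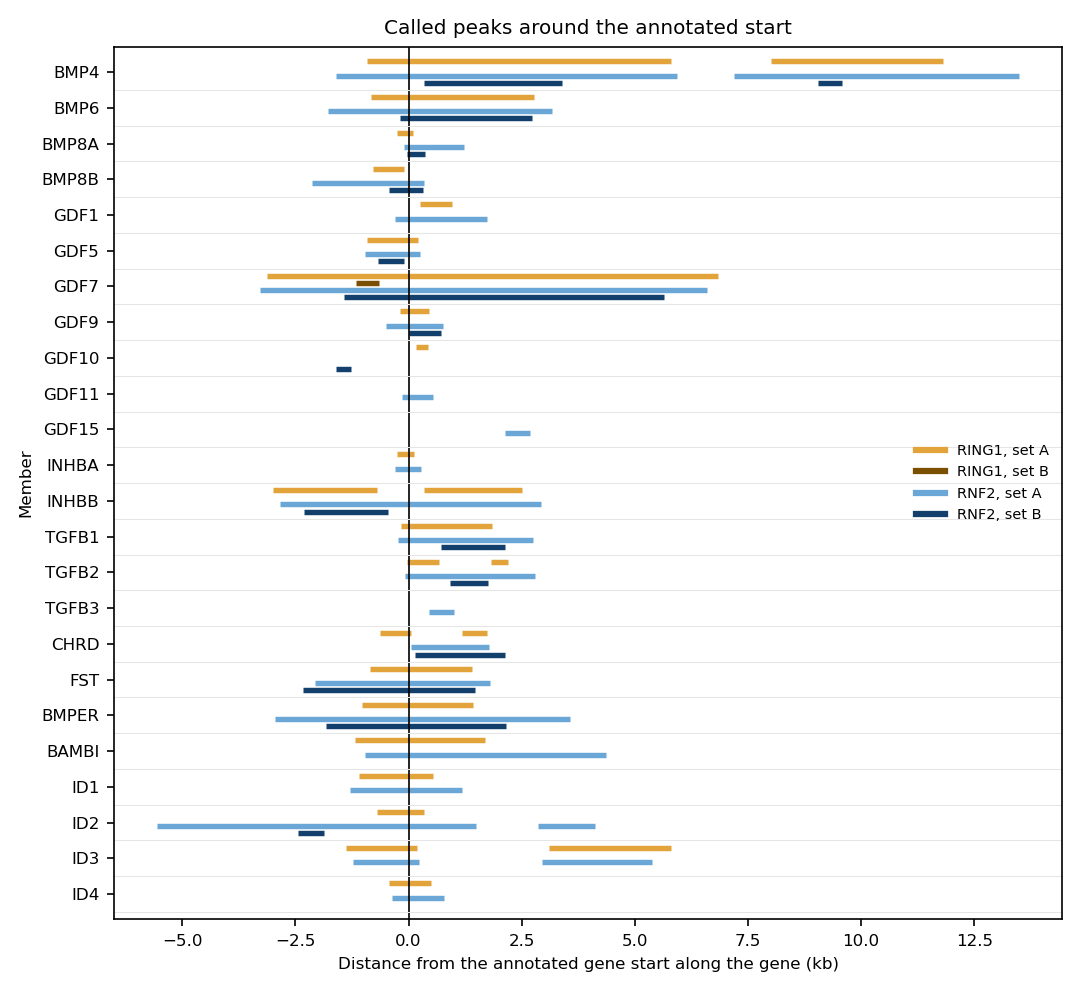
Called peaks (bars) at the 24 members with a known strand and a peak, by distance in kb from the annotated gene start (vertical line) in the direction of the gene; colours are the 4 lists. RNF2 peaks of set A at BMP4, GDF7, BMPER and ID2 run over several kb across the start, and those of set B are shorter (GDF7 7059 bp, ID2 580 bp for RNF2).

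Promoter CpG content was higher at most members with a peak than at most without, with the exceptions GREM1, TGFB3, GDF15 and INHBA. The CpG ratio is the number of CpGs over that expected from the C and G content of the 300-base window. Its median was 0.788 over the 24 members with a peak in any list, 0.197 over the 10 without and 0.763 over 15843 protein-coding promoters. All 14 members with a promoter entry and RNF2 in both sets had a ratio from 0.648 to 1.07, with a median of 0.788. Among all promoters with RNF2 in both sets, 85.6% had a ratio of at least 0.6 and the median was 0.847. The median over all promoters without a peak in any list was 0.368. A higher ratio at genes with a peak was thus general and not particular to the family. None of the 12 members under 0.6 had RNF2 in set B. Over all promoters, RNF2 of set A was at 24.6% of genes with a ratio under 0.6 and 75.2% of those above, and RNF2 of set B at 9.59% and 28.7%.

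Within the 22 members of high CpG ratio, set A had RNF2 at 20 and set B at 15. GREM1 (0.985) and GDF10 (0.722) were the members of high ratio without RNF2 in set A. TGFB3 (0.433), GDF15 (0.417) and INHBA (0.0716) were those of low ratio with it, but none of their RNF2 peaks met the promoter window. The TGFB3 peak began 449 bp inside the gene, and the GDF15 peak lay at the far end. The promoter table places the INHBA start 2316 bp inside the annotated gene end, so the window of low CpG content is not the place of the peak; the tables differ likewise by 1841 bp at BMP4 and 6270 bp at NODAL. BMP2, BMP3, BMP7, GDF6, LEFTY1, LEFTY2, INHBE and NOG have no entry in the table. A correlation was not computed, since genes are not replicates.

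**Figure D4:**
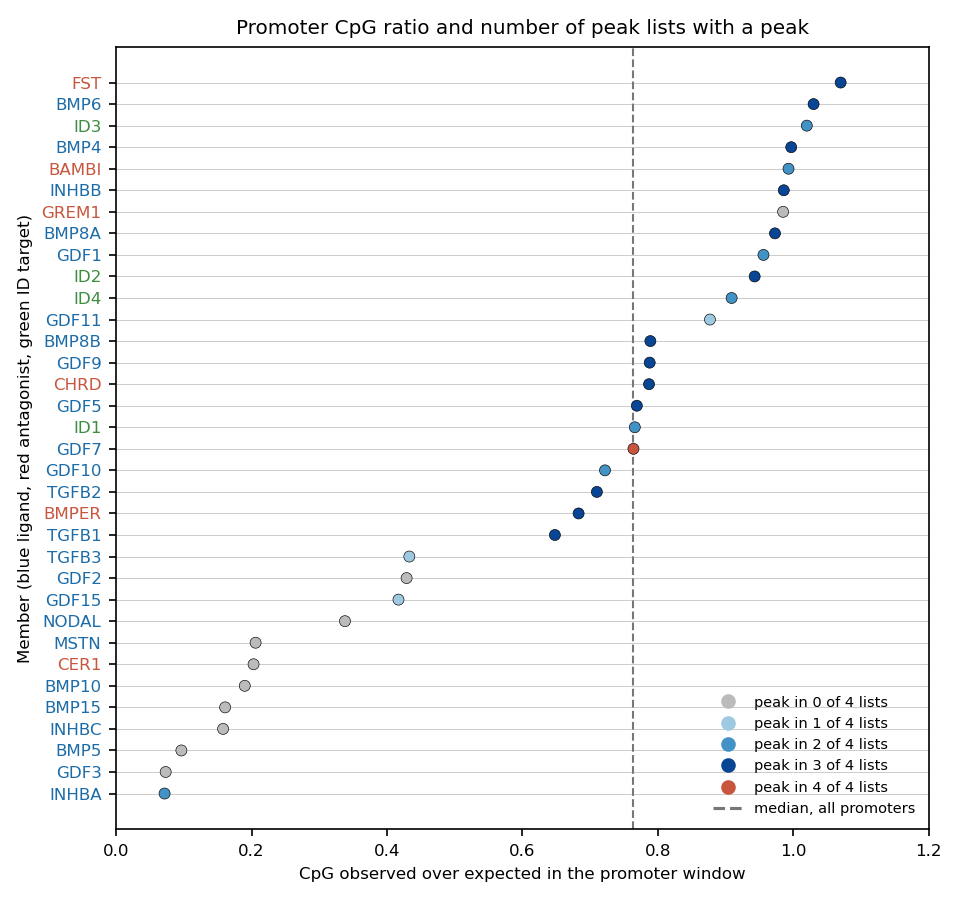
CpG observed over expected in the promoter window (x axis) of the 34 members with a promoter entry, ordered by that ratio; point colour is the number of the 4 lists with a peak and the dashed line is the median of all promoters (0.763). Grey points, with no peak, lie at 0.429 or less except GREM1 at 0.985.

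Motifs were searched on both strands of the same windows. The E-box CACGTG, bound by MGA and MAX of a variant PRC1, was in the windows of TGFB2 and TGFB3 (5.88% of 34) and in 8.88% of all promoters. GGCGGGA, an E2F-type sequence, was in 9 windows (26.5%) against 20.7%, and GGCGCC, part of a BMP-responsive element, in 10 (29.4%) against 25.2%. Matches of the 2 GC-rich motifs may share bases. GTCTAGAC, a palindromic SMAD-binding sequence, was in none against 0.221%. None of the 4 ID promoters held GGCGCC in this window. These are matches of letters in 300 bases, not shown sites.

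The other genes of the pathway, 46 in all, were counted in the same way. RNF2 of set A was at 34 of them (73.9%), RNF2 of set B at 13 (28.3%) and RNF2 in both at 12 (26.1%). RING1 of set A was at 30 (65.2%), and that of set B at none. All genes stood at 56.1%, 21.7% and 20.8% for RNF2 and at 45.6% and 1.32% for RING1. Of 14 receptor genes, 10 had RNF2 in set A, and set B had it at TGFBR1, the type I TGF-beta receptor gene (4.60 and 3.76), and ACVR1C, a nodal and activin receptor gene (3.62 and 4.02). The BMP receptor genes BMPR1A, BMPR1B and BMPR2 had both proteins in set A and neither in set B. Receptors with RNF2 thus made up 71.4% in set A, against 56.1% of all genes and 64.5% of ligands, and 14.3% in set B, against 21.7% and 51.6%. The difference between receptors and ligands was not tested.

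Of 8 SMAD genes, 7 had RNF2 in set A, of which 3 also had it in set B (37.5%, against 20.8% of all genes in both sets). SMAD2, a TGF-beta and activin transducer gene, had RNF2 folds of 10.6 and 4.87, SMAD6 had 5.32 and 3.53 and SMAD7 had 4.91 and 3.31; the last 2 encode inhibitory SMADs that BMP and TGF-beta signals induce. SMAD1 had no peak in any list. Of 22 genes of coreceptors and other secreted regulators, set A had RNF2 at 15 (68.2%, against 56.1% of all genes) and set B at 7 (31.8%, against 21.7%). Ranked by the smaller of both RNF2 folds, the first were LTBP3, a latent TGF-beta binding protein gene (7.09 and 6.07), TLL1, a chordin-cleaving protease gene (5.11 and 4.16), and TWSG1, a chordin cofactor gene (5.29 and 3.79). INHA, the inhibin alpha subunit gene, had RNF2 at 4.26 and 3.96, and AMH, the anti-Muellerian hormone gene, had it in set A only.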

How the data were processed

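CUT&RUN libraries of wild-type H9 neural progenitor cells were made with the EpiCypher kit, per the labels' protocols. Build hg38 and the tools MACS2 2.2.9.1, deepTools 3.5.2, bedtools 2.30.0, Picard 2.8.1, SAMtools 1.9 and BWA 0.7.17 stand in the submitters' processing notes, without roles or options. Some wild-type IgG libraries are titled as controls, but the sources used here name no control for peak calling. A deposited list covers 1 antibody in 1 set, and was treated as the calls of 1 library. Its fold is the authors' ratio of signal to background at the peak. The deposited −log10 of the q-value was used for thresholds. The consolidated file holds coordinates only (other), per the file itself.

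Autosomal, X and Y peaks were assigned to RefSeq genes (GRCh38.p14) within 2 kb of either gene end; where several lay at a gene, the highest fold and its width were used. Strand and promoter windows came from the RefSeq promoter table. TDGF1 of the pathway list matched as CRIPTO. Values were printed for members with RNF2 in both sets or RING1 in set B, and for others by the rule of highest and lowest fold, and the remaining names were added after their values were seen; other pathway genes were named by the 3 highest smaller RNF2 folds per class, and promoters by RNF2 fold, peak width or CpG ratio. GDF7 stands for GDF6 among the promoters. Members and gene lists were chosen with earlier results of these data known. Gene assignment was tested on simulated data: all 200 planted peaks were recovered among 20037 genes. No statistical test was run. Alternatives were other windows, a −log10 q of at least 5, lists of equal length and each set left out. Software was matplotlib 3.10.9, pandas 2.3.3 and numpy 2.4.6 under Python 3.11.15.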

Additional observations from a re-analysis of the deposited data

How the results depend on the processing

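No paired analysis was possible because the results come from no test; RING1 and RNF2 lists were set side by side within a set. Counts with windows of 1 kb or 5 kb, gene bodies extended by 2 kb or gene starts only stayed within 1.5 times the main count, except that GDF6 was lost with 1 kb or starts only (RING1 of set B, and RING1 in both sets, 1 gene; GDF6 has no strand entry) and ID2 with 1 kb (0 ID targets with RNF2 in set B). Starts only dropped BMP2, BMP3, BMP7, GDF6, INHBE and NOG from every list that held them, since they have no strand entry. That setting could not test their starts. An overlap of 50% of the shorter peak kept the shared RING1 and RNF2 count of set A within 1.5 times the main count, and the lists of set B gave 2. RING1 in both sets ranged from 2 without set A to 27 without set B, and RNF2 in both sets from 21 to 29.

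At a −log10 q of at least 5, RING1 remained at 3 members in set A (BMP4, GDF5 and GDF6, all overlapping RNF2) and 0 in set B, so 0 in both; in set A this was 7.14% of members against 7.97% of all genes, so the excess over all genes was lost. RNF2 remained at 9 in set A (BMP4, BMP6, GDF5, GDF6, GDF7, INHBE, NOG, ID1 and ID3) and at 2 in set B and in both (GDF6 and GDF7); all genes stood at 15.7% and 2.56%. By class, set A kept 6 ligands, 1 antagonist and 2 ID targets; set B kept 2 ligands and 0 of either other class. Of the other pathway genes 8 and 1 remained. With 659 peaks kept per list, RING1 remained at 1 member in set A (GDF5, overlapping RNF2) and 0 in both sets, which in set A was 2.38% against 3.70% of all genes. RNF2 remained at 3 members in each set and 2 in both (BMP4 and GDF6), all ligands, where 3.91% and 3.55% of all genes had a peak. Antagonists and ID targets were then at 0 in both RNF2 lists, and other pathway genes at 1 and 2. Depth per library is unknown, so the limit it sets on missing peaks could not be computed.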
